A study of Mus musculus with 16 samples.

Results

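The 9 genes described here encode fatty acid desaturases and elongases and were taken by symbol: *Fads1*, *Fads2*, *Fads3*, *Fads6*, *Elovl1*, *Elovl2*, *Elovl4*, *Elovl5* and *Elovl7*. They are 9 of the 17074 genes measured by poly(A) RNA-Seq of mouse cerebellum, and all 9 passed the filter on low values, a mean of 10 or more normalized counts, which left 17042 genes to test. The study compared 4 groups of female C57BL/6 mice, with 4 libraries in each: *Acsl6*-/- and control mice aged 18 months, for which the labels give natural aging as the treatment, and *Acsl6*-/- and control mice aged 2 months, with no treatment given. *Acsl6*-/- mice carry a germline deletion in all tissues, made by crossing floxed *Acsl6* mice with CMV-Cre mice, so the gene was lost in every cell type and before birth. All mice ate a chow that held no docosahexaenoic acid (DHA). The labels do not say how the controls were bred. Libraries are numbered 1 to 4 within a group as in the labels, and the labels do not say that the numbers link animals of different groups.

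Mammals cannot make polyunsaturated fatty acids (PUFA) from nothing, but they can build long ones from linoleic and α-linolenic acid, which come from food. Desaturases insert double bonds and elongases add carbons in pairs, in turn, on the endoplasmic reticulum, and a last shortening step in the peroxisome gives DHA, the main PUFA of brain membranes. ACSL6 is an acyl-CoA synthetase that activates DHA for storage in membrane phospholipids, and the study asked which transcripts differ when it is missing in young and in aged cerebellum.

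A normalized count is the number of reads in the exons of a gene divided by 1 size factor for its library. In 14 libraries the reads themselves could be recovered, and they numbered 16953548 to 23119179 per library. *Acsl6* itself averaged 2293 ± 36.1 normalized counts in young *Acsl6*-/- mice and 6753 ± 309 in young control mice (SD, n = 4 each). At 18 months the means were 2178 ± 75.7 for *Acsl6*-/- mice and 5969.9 ± 112 for controls. All *Acsl6*-/- libraries lay below all control libraries of their age (exact permutation test, two-sided, p = 0.0286 at each age, the smallest that 4 against 4 allows), and the *Acsl6* level of *Acsl6*-/- mice was 34.0% and 36.5% of control at 2 and 18 months. Summed markers of cerebellar granule neurons, Purkinje cells, astrocytes with Bergmann glia and oligodendrocytes were above 0 in every library. None of these markers was at 0 in all 4 libraries of a group. The 5 libraries aged *Acsl6*-/- 1, aged control 3 and 4 and young control 1 and 4 had over 5000 normalized counts of *Ttr*, a choroid plexus transcript, against 87.9 to 435 in the other 11. In bulk tissue, fewer cells of a type and less RNA per cell cannot be told apart.

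All 9 genes were well expressed in cerebellum. Per kilobase of exon, which allows levels of different genes to be compared, *Fads1* stood highest with 632.8 ± 44.1 normalized counts per kilobase (SD over 16 libraries, 91.5th percentile of all genes). *Elovl5* followed with 530.3 ± 48.2, *Fads6* with 478.6 ± 17.7, *Elovl4* with 371.6 ± 29.1 and *Fads2* with 274 ± 46.9. *Elovl2* had 198.3 ± 17.3, and *Elovl7*, *Fads3* and *Elovl1* had 124.3 ± 14.6, 117.5 ± 12.4 and 111.2 ± 9.9 per kilobase, with *Elovl1* at the 53.1st percentile. The last 3 overlapped with each other in all groups, and their order is therefore not resolved. *Fads1* lay above *Elovl5* in every library of 3 groups, and only in aged *Acsl6*-/- mice did their ranges overlap. *Fads2* changed place: its range overlapped with that of *Elovl2* in young control mice and stood wholly above it in the other 3 groups, where it also came closer to *Elovl4* and overlapped with it in aged *Acsl6*-/- mice.

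**Figure D1:**
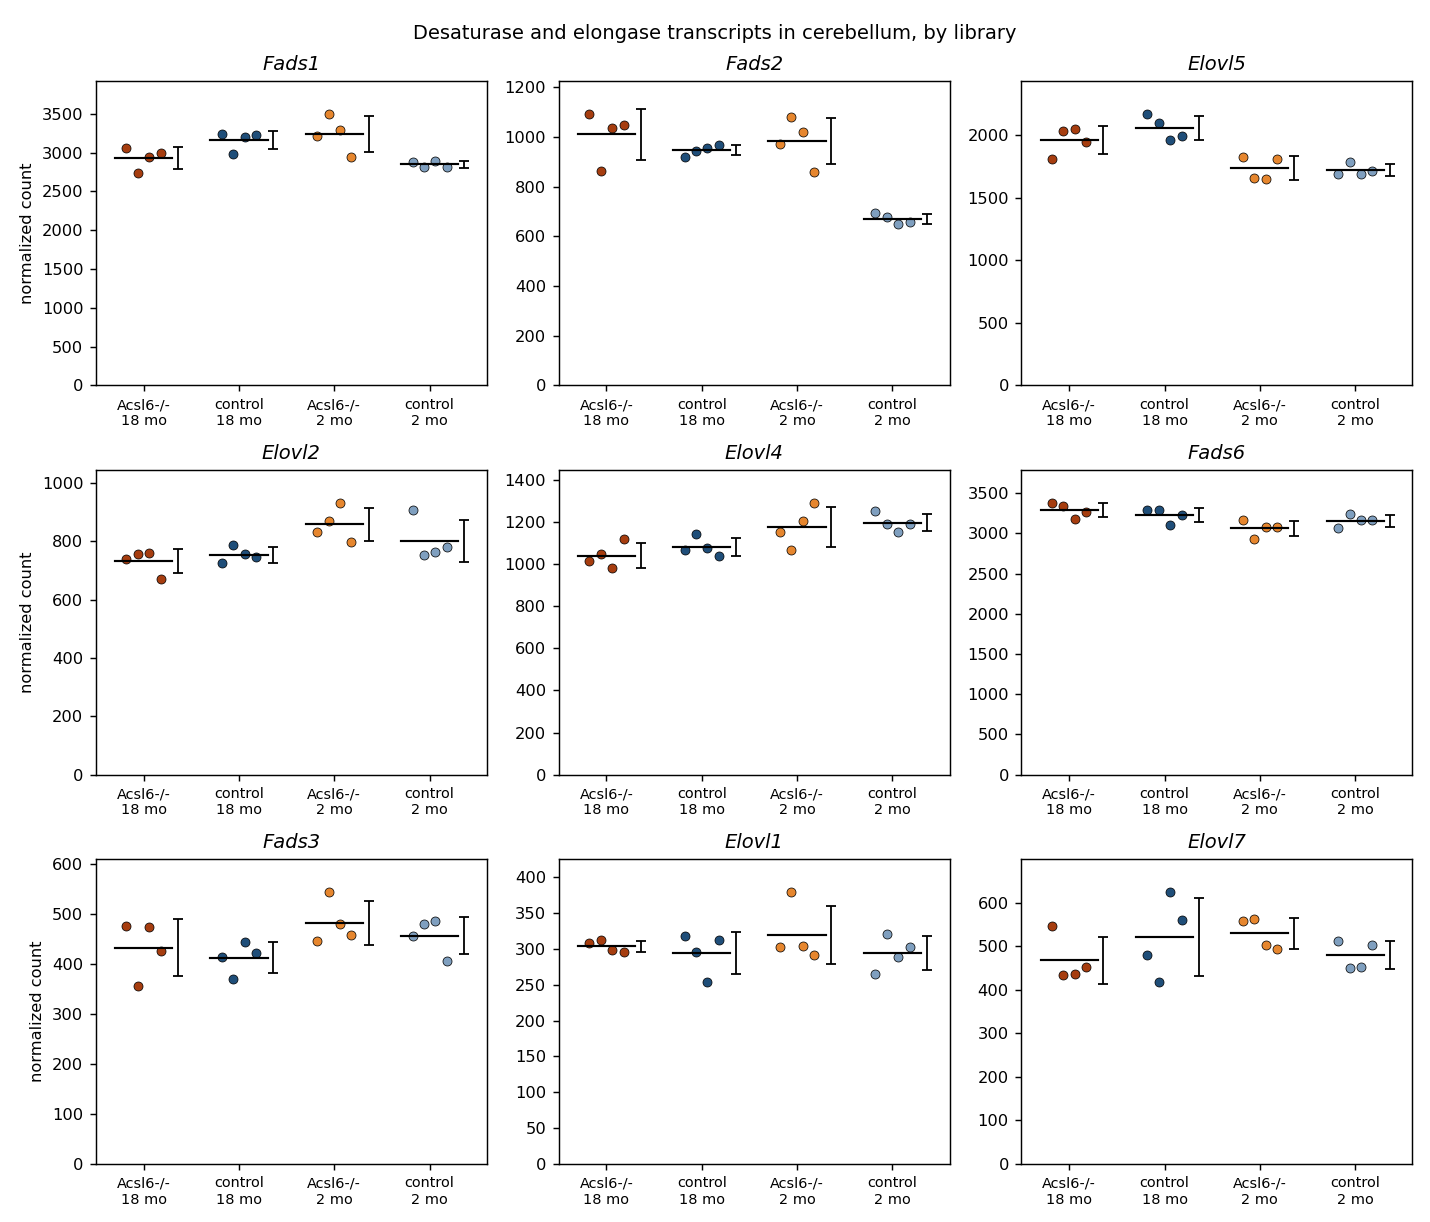
Normalized counts of the 9 genes (y axes from 0) in each of the 16 libraries, by group. Points are libraries, horizontal lines are group means and bars are 1 SD (n = 4). For *Fads2* the 4 young control libraries, at 650.0 to 693, lie below all 12 others, while *Fads3*, *Elovl1* and *Elovl7* overlap between genotypes at each age and between ages in each genotype.

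*Fads1*, *Fads2* and *Fads3* lie side by side on chromosome 19 of GRCm38, the build used for all places given here. *Fads3* spans 10041569 to 10060110 on the forward strand, *Fads2* spans 10062765 to 10101746 on the reverse strand and *Fads1* spans 10182888 to 10196877 on the forward strand. The start sites of *Fads2* and *Fads1* are 81.1 kb apart and the 2 genes are transcribed away from one another. The remaining members are scattered: *Elovl1* on chromosome 4, *Elovl5* (77917364 to 77984519) and *Elovl4* (83778692 to 83806277) on chromosome 9, *Fads6* on chromosome 11, and *Elovl2* (41182381 to 41220405) and *Elovl7* (108214404 to 108285683) on chromosome 13. *Elovl1* overlaps *Cdc20* on the other strand, and since the strand used in counting is not given in the sources used here, reads of these genes cannot be told apart where they overlap.

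Promoter windows of 300 bases, 250 before the start site and 50 after it, were taken from RefSeq (GRCm38.p6) for 8 of the 9 genes, 10 windows in all. No window was available for *Fads1*. Those of *Fads2*, *Elovl5* and *Elovl2* are shown because these genes gave the clearest differences by genotype or age. The search covered 5 motifs on both strands, with matches in capitals: the sterol regulatory element bound by SREBPs (TCACNCCAC), the NF-Y box (CCAAT, or ATTGG when read on the other strand), the Sp1 GC box (GGGCGG), the E-box (CACGTG) and the direct repeat bound by PPAR with RXR (AGGTCA, any base, AGGTCA).
Fads2, chr19:10101454-10101753, reverse strand: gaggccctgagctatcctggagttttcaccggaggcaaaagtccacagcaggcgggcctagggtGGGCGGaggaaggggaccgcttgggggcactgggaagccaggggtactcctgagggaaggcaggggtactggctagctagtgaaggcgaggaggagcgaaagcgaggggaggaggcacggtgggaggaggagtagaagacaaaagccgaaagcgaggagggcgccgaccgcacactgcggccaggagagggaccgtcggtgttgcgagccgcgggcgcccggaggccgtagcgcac
Elovl5, chr9:77917115-77917414, forward strand: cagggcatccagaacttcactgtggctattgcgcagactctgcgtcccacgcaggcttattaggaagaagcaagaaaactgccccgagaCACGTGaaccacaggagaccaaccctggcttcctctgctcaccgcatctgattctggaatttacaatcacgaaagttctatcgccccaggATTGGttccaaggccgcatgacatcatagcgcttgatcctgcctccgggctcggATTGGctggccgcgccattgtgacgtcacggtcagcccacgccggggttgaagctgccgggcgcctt
Elovl2, chr13:41220354-41220653, reverse strand: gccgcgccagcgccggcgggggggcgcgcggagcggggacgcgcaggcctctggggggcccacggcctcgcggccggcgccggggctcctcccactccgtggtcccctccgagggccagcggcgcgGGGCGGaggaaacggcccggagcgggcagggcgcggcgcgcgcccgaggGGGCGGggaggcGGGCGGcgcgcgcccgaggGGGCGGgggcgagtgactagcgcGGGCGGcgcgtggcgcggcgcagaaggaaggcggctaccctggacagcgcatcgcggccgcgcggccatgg
The windows differ in make-up. *Fads2* held 1 GC box, 186 bases before the start site, and a GC content of 67.0%, against a median of 52.7% over all 32851 windows. The RefSeq start of *Fads2* is 243 bases downstream of the start in the annotation used for its place above. By that annotation nearly all of the window, with its GC box, lies within the gene, which reaches 10101746. The sequence before that start was therefore hardly searched for *Fads2*. *Elovl5* held 2 NF-Y boxes on the other strand and 1 E-box, whose letters read the same on both strands. The window shown for *Elovl2*, with a GC content of 84.7%, held 5 GC boxes. It is 1 of 2 windows for *Elovl2*, and the other (chr13:41220113-41220412) held 0 GC boxes, with a GC content of 76.7%. No window of the 8 genes held the sterol regulatory element or the PPAR repeat in these letters, which occur in 1.24% and 0.0396% of all windows. NF-Y boxes, GC boxes and E-boxes occur in 37.4%, 35.7% and 7.15% of all windows. A match is a run of letters and no evidence of binding.

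The first question was which of these transcripts depend on *Acsl6* in young mice. *Fads2* rose in young *Acsl6*-/- cerebellum and was the only member called of 9. Differences were tested with limma on log2(normalized count + 1), in 1 model of all 16 libraries, and a gene was called when its Benjamini-Hochberg adjusted p over the 17042 genes was under 0.05. By this rule 0.211% of all genes were called at 2 months in either direction. The median log2 fold change of the 9 members was 0.10, against -0.0016 over all genes, and 7 of the 9 had a positive value.

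*Fads2* encodes the desaturase that acts first on linoleic and α-linolenic acid and again later on the way to DHA, and is commonly seen as the slow step of the pathway. Young *Acsl6*-/- mice had 972, 1082, 1021 and 860.0 normalized counts of *Fads2*, against 693, 679.8, 650.0 and 657 in young control mice. The lowest *Acsl6*-/- library, number 4, stood well above the highest control library, and the controls lay much closer together (CV 2.97%) than the *Acsl6*-/- libraries (CV 9.57%). The means were 984 ± 94.1 and 669.8 ± 19.9 (SD, n = 4 each). The log2 fold change was 0.55 (SE 0.07, 95% interval 0.40 to 0.70), an increase of 46.3%, with an adjusted p of 7.5e-04. *Fads2* was called under all 28 alternative settings, with log2 fold changes of 0.50 to 0.61 and adjusted p values up to 0.0348.

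*Fads1* encodes the next desaturase of the pathway, which makes arachidonic and eicosapentaenoic acid. Its counts were 3215, 3501, 3289 and 2939 in young *Acsl6*-/- mice, against 2875, 2813, 2891 and 2808 in young control mice. The groups did not overlap here either, as was the case for 6.65% of all genes in this comparison, but the gap was narrow and *Acsl6*-/- library 4 came close to the controls. The difference of 0.18 on the log2 scale (SE 0.05) did not pass the test (adjusted p = 0.115). It passed without young *Acsl6*-/- library 4 (log2 fold change 0.23, adjusted p = 0.0395) and by DESeq2 on recovered reads (adjusted p = 0.0468), and the adjusted p ranged from 0.0395 to 0.333 over the 28 alternatives. DESeq2 called 212 of 14726 genes in this comparison, and limma called 36 of 17042.

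The third gene of the cluster did not stand out. *Fads3*, whose product puts a double bond into the sphingoid base of ceramides, had 445 to 544 counts in young *Acsl6*-/- and 405 to 486 in young control mice, a log2 fold change of 0.08 with an interval of -0.12 to 0.27. Nor was any of the 5 nearest genes of the table on either side of the cluster called for genotype at 2 months or at 18 months by limma. Those are *Gm9750*, *Incenp*, *Fth1*, *Best1* and *Rab3il1* on one side and *Fen1*, *Tmem258*, *Myrf*, *Dagla* and *Syt7* on the other, and *Fads2* was the one gene called among them and the 3 *Fads* genes. With age *Best1* rose in *Acsl6*-/- mice (1.11, adjusted p = 0.00996) and *Fen1* fell in control mice (-0.36, adjusted p = 0.0304). In young *Acsl6*-/- mice, then, the call at this locus was limited to 1 gene, with its partner *Fads1* separate from controls but short of the threshold.

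The elongases of PUFA showed no call at 2 months. *Elovl5*, which extends the products of the first desaturation step, had 1646 to 1824 counts in young *Acsl6*-/- and 1688 to 1787 in young control mice (log2 fold change 0.01, interval -0.09 to 0.11). *Elovl2*, which extends PUFA further to the precursors of DHA, had 799 to 932 and 752 to 909 counts in the same groups (0.10, interval -0.03 to 0.24). *Elovl4*, which makes the very long chain PUFA found in retina and brain, had 1066 to 1292 in young *Acsl6*-/- and 1155 to 1251 in young control mice (-0.03, interval -0.14 to 0.09). For these 3 genes the intervals reach no further than 0.24 in either direction. *Elovl1* and *Elovl7*, which elongate saturated fatty acids, had log2 fold changes of 0.11 and 0.14, and *Fads6*, which belongs to the same family by name, had -0.04, all with intervals that include 0.

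**Figure D2:**
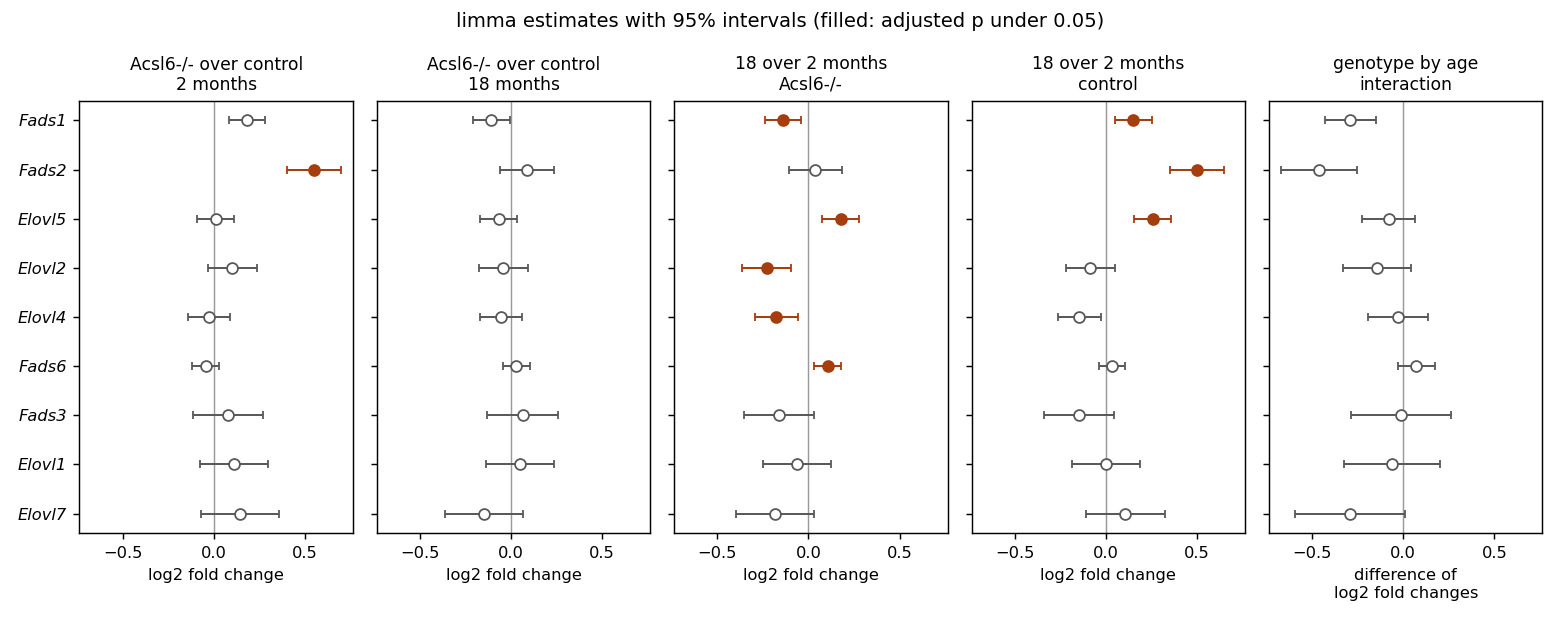
Log2 fold changes of the 9 genes from limma (points) with 95% intervals (lines), for *Acsl6*-/- over control at 2 and at 18 months, for 18 over 2 months in *Acsl6*-/- and in control mice, and for the difference of the 2 genotype effects. Filled points have an adjusted p under 0.05: *Fads2* is filled for genotype at 2 months and for age in controls, *Fads1* and *Elovl5* for age in both genotypes, and *Fads6*, *Elovl2* and *Elovl4* for age in *Acsl6*-/- mice.

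At 18 months no member was called for genotype by limma, where 0.241% of all genes were called. One member, *Fads1*, had an unadjusted p under 0.05. The count tools edgeR and DESeq2, which left out aged control 3 and 4, also called 0 of 9. There edgeR called 39 of 17042 genes and DESeq2 152 of 12745. *Fads2* had 1094, 863, 1037 and 1048 counts in aged *Acsl6*-/- mice, against 919, 945, 957 and 968 in aged control mice. Of the *Acsl6*-/- libraries 3 were above all controls and 1 was below them, so the groups overlapped, and the log2 fold change was 0.09 (SE 0.07, interval -0.06 to 0.23, adjusted p = 0.776). *Fads1* had 3062, 2736, 2949 and 2994 counts in aged *Acsl6*-/- mice, against 3243, 2983, 3194 and 3228 in aged control mice. Each of its *Acsl6*-/- libraries lay below the control mean, which is the opposite of the order at 2 months, with a log2 fold change of -0.11 (SE 0.05, interval -0.21 to -0.01, adjusted p = 0.508). The other 7 members had log2 fold changes from -0.15 for *Elovl7* to 0.06 for *Fads3*, and the median of all 9 was -0.04, against 0.0027 over all genes. The value of *Elovl7* was -0.025 without the 5 libraries high in *Ttr*, and it turned to 0.051 with edgeR, 0.056 with DESeq2 and 0.053 with limma on the same 14 libraries.

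Whether the genotype effect differed between the ages was tested as an interaction, the effect at 18 months minus that at 2 months. Limma called 0 of 9 members and 0.0176% of all genes. The count tools edgeR and DESeq2, which left out aged control 3 and 4, also called 0 of 9. Of all genes edgeR called 0 of 17042 there, limma on the same 14 libraries 0 of 17042 and DESeq2 48 of 10764. With so few calls over all genes, the 0 of 9 from the count tools adds little. In the limma fit of all 16 libraries 2 members had an unadjusted p under 0.05. These were the same pair of desaturases: *Fads2* with a difference of -0.46 (SE 0.10, interval -0.67 to -0.25, adjusted p = 0.128) and *Fads1* with -0.29 (SE 0.07, interval -0.43 to -0.15, adjusted p = 0.166). Over the alternatives the adjusted p ranged from 0.0564 to 0.299 for *Fads2* and from 0.0749 to 0.347 for *Fads1*. A difference between the ages in the genotype effect is therefore not shown for either gene.

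The second question was how these transcripts change with age in each genotype. In *Acsl6*-/- mice 2 of 9 members rose and 3 fell, where 11.6% of all genes rose and 11.6% fell, 23.2% in all. The ages did not overlap for 2 members (*Fads6* and *Elovl2*), as for 23.7% of all genes. In control mice 3 of 9 rose and none fell, where 15.3% of all genes rose and 16% fell, 31.3% in all. Here the ages did not overlap for 4 members (*Fads1*, *Fads2*, *Elovl5* and *Elovl4*), as for 30.3% of all genes. The comparison in controls shares its 4 young control libraries with the genotype comparison at 2 months, so that a low level of *Fads2* in those libraries enters both. The median log2 fold change of the members was -0.14 in *Acsl6*-/- and 0.03 in control mice, against -1.5e-04 and 0.0060 over all genes. Without the 5 libraries high in *Ttr*, *Acsl6*-/- mice had 1 member higher and 2 lower with age, and controls had 2 higher. For controls that fit keeps only aged libraries 1 and 2 and young libraries 2 and 3. In that fit 3652 of all 17042 genes were called in *Acsl6*-/- and 2773 in control mice, against 3957 and 5333 with all libraries.

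*Acsl6*-/- mice had 863 to 1094 counts of *Fads2* at 18 months and 860.0 to 1082 at 2 months. These ranges almost coincide, and the log2 fold change was 0.04 (SE 0.07, interval -0.11 to 0.18, adjusted p = 0.744). In control mice *Fads2* stood at 919 to 968 counts at 18 months and at 650.0 to 693 at 2 months, with a wide gap between the ages. The log2 fold change there was 0.50 (SE 0.07, interval 0.35 to 0.65, adjusted p = 4.0e-05), and *Fads2* was called under all 28 alternatives. Among the 4 groups, then, the young controls were low in *Fads2* and the other 3 groups overlapped. The age effect in *Acsl6*-/- minus that in control mice is the same interaction as above (-0.46, not called).

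*Fads1* was called in both genotypes, in opposite directions, although the interaction that compares them was not called (-0.29, adjusted p = 0.166). In *Acsl6*-/- mice *Fads1* had 2736 to 3062 counts at 18 months and 2939 to 3501 at 2 months, with overlap, and a log2 fold change of -0.14 (SE 0.05, adjusted p = 0.0423). That call held in 13 of 28 alternatives, with adjusted p values from 0.0074 to 0.144. It was lost without young *Acsl6*-/- library 1 (0.0708), 2 (0.143) or 3 (0.0988), aged *Acsl6*-/- library 2 (0.144), 3 (0.0657) or 4 (0.0570), young control library 1 (0.0505) or 2 (0.0502), or aged control library 4 (0.0503). It was lost as well with a replicate block, with quantile normalization (0.130), with only the 2 groups compared (0.0938), without the 5 libraries high in *Ttr* (0.0583), with edgeR on 14 libraries (0.0654) and with limma on the same 14 (0.0564). In control mice *Fads1* was higher in every library at 18 months, 2983 to 3243 counts, than at 2 months, 2808 to 2891, with a log2 fold change of 0.15 (SE 0.05, adjusted p = 0.0224). The call in controls held in 21 of 28 alternatives. The adjusted p ranged from 0.0097 to 0.280 over them. The call was lost without aged control library 1 (adjusted p = 0.0617), 3 (0.0508) or 4 (0.0590). It was lost as well without the 5 libraries high in *Ttr* (0.280), a fit that keeps only aged control 1 and 2 and young control 2 and 3. Neither count test made it (edgeR adjusted p = 0.134, DESeq2 0.163), and nor did limma on the same 14 libraries, which leave out aged control 3 and 4.

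The ratio of the 2 desaturases is given as a description, with no test. The ratio of *Fads2* to *Fads1* counts was 0.302, 0.309, 0.310 and 0.293 in young *Acsl6*-/- mice, against 0.241, 0.242, 0.225 and 0.234 in young control mice. At 18 months it was 0.357, 0.315, 0.352 and 0.35 in *Acsl6*-/- mice, against 0.284, 0.317, 0.299 and 0.30 in control mice. The young controls lay below all other libraries, and 3 of the 4 aged *Acsl6*-/- libraries lay above all others. Within groups the 2 genes moved together: after the group means were taken away, their log2 values had a Pearson's r of 0.84 over the 16 libraries, and *Fads3* had r = 0.74 with *Fads1* and 0.70 with *Fads2*. These r values are a description, since all genes of a library share its tissue piece and its depth. *Fads1* ran against *Elovl4* (r = -0.65) and *Fads2* against *Elovl5* (r = -0.62) in the same way.

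**Figure D3:**
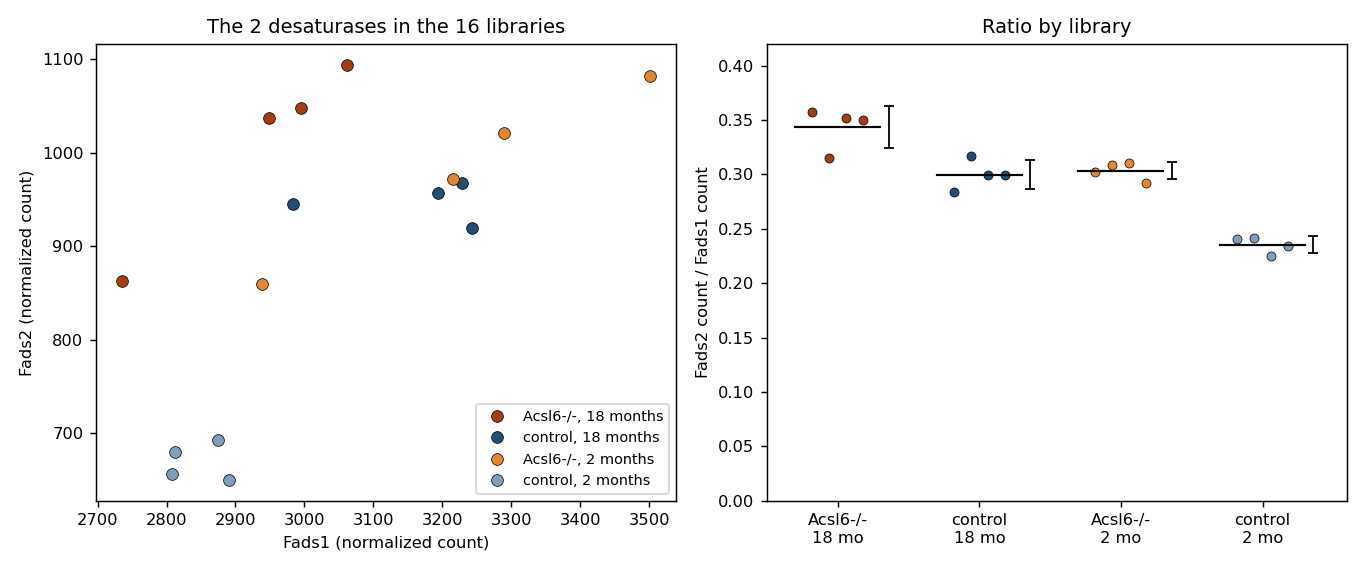
Left, *Fads2* against *Fads1* (normalized counts, axes not from 0) in the 16 libraries, colored by group. Right, the ratio of the 2 counts in each library with group means and 1 SD (n = 4), where the young controls, at 0.225 to 0.242, lie below all other libraries.

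*Elovl5* rose with age in both genotypes. *Acsl6*-/- mice had 1812, 2034, 2052 and 1945 counts at 18 months, against 1824, 1657, 1646 and 1812 at 2 months. Control mice had 2172, 2094, 1963 and 1994 counts at 18 months, against 1689, 1787, 1688 and 1716 at 2 months. In *Acsl6*-/- mice aged library 1 lay within the range of the young libraries, while in controls the ages were separate. The log2 fold changes were 0.18 (SE 0.05, interval 0.07 to 0.28, adjusted p = 0.0129) in *Acsl6*-/- and 0.26 (SE 0.05, interval 0.15 to 0.36, adjusted p = 6.5e-04) in control mice, and both were called under all 28 alternatives. The change in *Acsl6*-/- minus that in control mice was -0.08 (interval -0.22 to 0.06).

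*Elovl2* and *Elovl4* had lower values at 18 months. *Elovl2* had 739.8, 756, 762 and 672 counts in aged *Acsl6*-/- mice, against 833, 870.1, 932 and 799 in young *Acsl6*-/- mice. The groups did not overlap, and *Elovl2* fell by 0.23 on the log2 scale (SE 0.06, interval -0.36 to -0.10, adjusted p = 0.0136). The call was lost without young *Acsl6*-/- library 3 (adjusted p = 0.0558) or aged *Acsl6*-/- library 4 (0.0533), within a range of 0.0055 to 0.0558 over the alternatives. In control mice *Elovl2* had 724 to 789 counts at 18 months and 752 to 909 at 2 months, a log2 fold change of -0.08 that was not called (adjusted p = 0.331). The difference between the genotypes in this change was -0.14 (interval -0.33 to 0.04) and was not called.

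*Elovl4* had 1013, 1049, 982 and 1121 counts in aged *Acsl6*-/- mice, against 1152, 1066, 1203 and 1292 in young *Acsl6*-/- mice. Aged library 4 lay above young library 2, and the rest were separate. *Elovl4* fell by 0.18 on the log2 scale (SE 0.06, adjusted p = 0.0280), a call lost without young *Acsl6*-/- library 3 (0.0718) or 4 (0.104), or without aged *Acsl6*-/- library 1 (0.0661) or 3 (0.0832), within a range of 0.0068 to 0.104. It was lost as well with quantile normalization (0.0533), with only the 2 groups compared (0.0656) and without the 5 libraries high in *Ttr* (0.0885). In control mice all aged libraries, 1037 to 1144 counts, were below all young ones, 1155 to 1251, yet the log2 fold change of -0.15 (SE 0.06) missed the threshold with an adjusted p of 0.0534. It passed in 8 of 28 alternatives, among them without young *Acsl6*-/- library 2 (0.0333) or 4 (0.0366), aged *Acsl6*-/- library 4 (0.0467) or aged control library 2 (0.0360), within a range of 0.0308 to 0.552. The estimates in the 2 genotypes were thus close, and their difference of -0.03 had an interval of -0.20 to 0.14.

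*Fads6* rose slightly in *Acsl6*-/- mice, with 3177 to 3380.0 counts at 18 months and 2931 to 3168 at 2 months, which do not overlap. The log2 fold change was 0.10 (SE 0.03, adjusted p = 0.0362). The call was lost without young *Acsl6*-/- library 2 (0.110), 3 (0.0656) or 4 (0.0597), or aged *Acsl6*-/- library 1 (0.0945), 2 (0.0842) or 4 (0.0594), within a range of 0.0172 to 0.110. It was lost as well with a replicate block, with only the 2 groups compared (0.0789) and without the 5 libraries high in *Ttr* (0.107). In control mice *Fads6* had 3102 to 3296 counts at 18 months and 3062 to 3234 at 2 months, a log2 fold change of 0.03 (interval -0.04 to 0.11).

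*Fads3*, *Elovl1* and *Elovl7* were called in no comparison. For *Fads3* the age estimates were -0.16 in *Acsl6*-/- mice (interval -0.35 to 0.03) and -0.15 in control mice (interval -0.34 to 0.05). *Elovl1*, among the least expressed members, had 295 to 312 counts in aged *Acsl6*-/- and 253 to 318 in aged control mice. Its age estimates were -0.07 in *Acsl6*-/- and -0.0017 in control mice. *Elovl7* had 546, 433, 436 and 452 counts in aged *Acsl6*-/- mice, against 479.6, 419, 624 and 561 in aged control mice. Its high libraries were aged control 3 and 4 and aged *Acsl6*-/- 1, which are the 3 aged libraries high in *Ttr*. The summed level of 8 choroid plexus markers was 948 to 14553 in aged *Acsl6*-/- and 680.0 to 30392 in aged control mice, and 917 to 1169 in young *Acsl6*-/- and 667 to 9730 in young control mice. None of these markers was at 0 in all 4 libraries of a group. Within groups the log2 value of *Elovl7* had r = 0.90 with the log2 of this sum (n = 16, a description). With the sum of 4 brainstem markers it had r = 0.78. That sum was 1928 in aged *Acsl6*-/- 1 and 1339 and 1215 in aged control 3 and 4, the highest of their groups. In young control 1 and 4 it was 1018 and 981, within a group range of 981 to 1043. The part of either tissue was not tested. Without the 5 libraries high in *Ttr* the age estimate of *Elovl7* in *Acsl6*-/- mice was -0.26 and was called (adjusted p = 0.0156, the lowest in a range up to 0.383), against -0.18 with all libraries (adjusted p = 0.208).

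**Figure D4:**
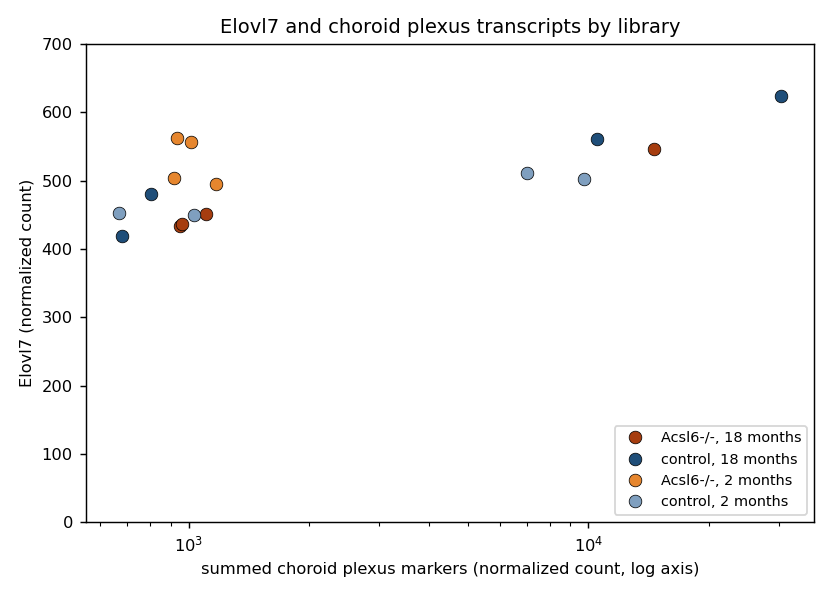
*Elovl7* (normalized counts, y axis) against the summed level of 8 choroid plexus markers (normalized counts, log x axis) in the 16 libraries, colored by group. In each of the 3 groups with libraries high in the sum, those libraries have the highest *Elovl7* of their group.

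Other cell type markers moved with the comparisons too. At 2 months all 12 oligodendrocyte markers had positive log2 fold changes (median 0.27, none called, 8 at an unadjusted p under 0.05). For 3 of them all *Acsl6*-/- libraries lay above all control libraries, where 6.65% of all genes had groups without overlap. Their summed levels were 107921 to 137193 in *Acsl6*-/- and 97185 to 111779 in control mice. Of the 12 astrocyte and Bergmann glia markers 11 were positive (median 0.09, 4 at an unadjusted p under 0.05), and 1, *Gfap*, was called, as higher. Their summed levels overlapped, at 103817 to 106387 in young *Acsl6*-/- and 97099 to 108726 in young control mice. All 10 microglia markers were positive as well (median 0.25, none called, 5 at an unadjusted p under 0.05), with summed levels of 2056 to 2485 in young *Acsl6*-/- and 1660 to 2088 in young control mice, which overlap. All 4 brainstem markers tested were positive (median 1.06), with summed levels of 874 to 1378 and 981 to 1043 in these groups, which overlap. Positive too were 6 of 6 oligodendrocyte precursor, 6 of 8 Purkinje and 3 of 10 granule neuron markers. Of the endothelial and choroid plexus markers 0 of 8 each were positive (medians -0.10 and -1.29). No marker on these last 6 lists was called. Within groups *Fads2*, *Fads1* and *Fads3* had r = 0.58, 0.69 and 0.61 with the microglia sum and 0.31, 0.52 and 0.60 with the oligodendrocyte sum. With the sum of astrocyte and Bergmann glia markers these genes had r = -0.52, -0.37 and -0.74, and with the brainstem sum 0.48, 0.52 and 0.47. *Elovl4* had -0.56 with the oligodendrocyte sum (n = 16 for each r, a description). With age all 10 microglia markers rose in both genotypes, and 9 of 10 granule neuron markers fell in *Acsl6*-/- and 10 of 10 in control mice. Of the 12 oligodendrocyte markers 9 were called lower with age in *Acsl6*-/- mice, while in control mice 3 were called lower and 1 higher. Of all genes 11.6% rose and 11.6% fell with age in *Acsl6*-/- mice, and 15.3% rose and 16% fell in control mice. For the interaction 0 of the 12 oligodendrocyte markers were called (6 at an unadjusted p under 0.05), so a difference between the genotypes in this change is not shown. The part of these cell types in the results for the 9 genes was not tested.

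Genes that work beside the 9 members were counted in the same way, with 0.211% of all genes called at 2 months and 0.241% at 18 months by limma. At 2 months edgeR called 37 of 17042 genes and DESeq2 212 of 14726. At 18 months, without aged control 3 and 4, edgeR called 39 of 17042 genes and DESeq2 152 of 12745. No share of all genes is given for the counts at an unadjusted p under 0.05. Of the other desaturases and elongases (*Scd* and *Degs* genes, *Elovl6*), 0 of 6 tested were called at 2 months by limma, with 3 at an unadjusted p under 0.05, 0 called by edgeR and 1 by DESeq2. Their median log2 fold change was 0.12, with 5 of 6 positive, and 3 of the 6 had all *Acsl6*-/- libraries above all control libraries, where 6.65% of all genes had groups without overlap. Of the enzymes that complete each elongation cycle or supply electrons to desaturases, 0 of 12 were called by limma (3 at an unadjusted p under 0.05, 0 by edgeR, 1 by DESeq2), and of the peroxisomal genes for chain shortening 0 of 13 (1 at an unadjusted p under 0.05, 0 by either tool). The medians of these 2 lists were 0.09 (10 of 12 positive) and 0.02 (10 of 13 positive), beside 0.10 for the 9 members. At 18 months limma and both count tools called 0 of the genes on these 3 lists, with 1, 1 and 0 at an unadjusted p under 0.05. Among 20 regulators of lipid transcription, 1 was called at each age: *Srebf2*, which encodes the sterol-sensing factor SREBP-2. It was higher in *Acsl6*-/- mice by 0.79 on the log2 scale in the young (adjusted p = 5.2e-06) and by 0.55 in the aged (0.0016). *Fads2* was called beside *Srebf2* at 2 months and was not called at 18 months. A link between these genes was not tested, and the limma interaction for *Fads2* was not called (adjusted p = 0.128).

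With age the genes of these lists were called as follows, where 23.2% of all genes were called in *Acsl6*-/- and 31.3% in control mice. In *Acsl6*-/- mice *Scd1*, the stearoyl-CoA desaturase that makes oleic acid, fell by 0.35 on the log2 scale (adjusted p = 2.1e-04), *Degs1*, a ceramide desaturase, by 0.16 (0.0122), and *Tecr*, the reductase of the last step of each elongation cycle, by 0.23 (4.7e-04). *Scp2*, the peroxisomal thiolase and sterol carrier, fell by 0.12 there (0.0309). In control mice *Scd2*, the main stearoyl-CoA desaturase of brain, rose by 0.13 (0.0222), and *Cyb5b*, a cytochrome b5, by 0.12 (0.0153). *Cyb5r2*, a cytochrome b5 reductase of low level, rose in both genotypes, by 1.14 in *Acsl6*-/- and 1.75 in control mice. In all, limma called 2 of 6, 2 of 12 and 1 of 13 genes of the 3 lists with age in *Acsl6*-/- mice (23.2% of all genes) and 1 of 6, 3 of 12 and 2 of 13 in control mice (31.3%). Among the 20 regulators, 8 were called with age in *Acsl6*-/- mice (3 lower) and 12 in control mice (7 lower), beside the same shares of all genes, with *Nr1h3*, a liver X receptor, higher by 0.47 in *Acsl6*-/- and 0.43 in control mice and *Nfyc*, a subunit of NF-Y, lower in both genotypes (-0.47 each).

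The genes whose levels ran most closely with *Fads2* over the 16 libraries were *Mid1ip1* (r = 0.91), *Eif4ebp1* (0.91), *Cyb5b* (0.90), *Rab7b* (0.89) and *Tkt* (0.88), by the Pearson's r of log2 values. *Mid1ip1* promotes the activity of acetyl-CoA carboxylase, and *Tkt* encodes transketolase. Groups and depth are shared by all genes of a library, and these values describe likeness only.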

How the data were processed

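Female mouse cerebellum was profiled by poly(A) RNA-Seq, 16 libraries in 4 groups. Per the labels and the methods, Trimmomatic 0.36 was used for trimming and STAR 2.5.2b for alignment to GRCm38, after which the authors counted reads in exons. The deposited signal is a normalized count, which the authors made from the counts with 1 size factor per library. The table holds 17074 genes, all with a mean of at least 9.31, and 17020 of them matched a symbol. Nothing says how many animals gave RNA to a library, so p values measure the spread between these libraries. For 14 libraries a single step divided 100% of the values evenly (tolerance 0.001), which gave back whole reads. In aged control 3 and 4 the lowest value was more than 1 step, and these libraries entered no count test. Totals were 20057077 to 21097638 normalized counts. No library was a copy of another (r 0.985 to 0.993 within groups, chi-square per gene 2.45 to 8.65 over 19 pairs).

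Limma 3.58.1 (R 4.3.3) was fitted to log2(normalized count + 1) of 17042 genes (mean of 10 or more), with 1 coefficient per group and empirical Bayes moderation with a trend, and p values, two-sided, were adjusted over all genes. Fold changes are on this scale and slightly understate those of low genes. Alternatives were a pseudocount of 5, no filter, a mean of at least 50, TMM, quantile normalization, only the 2 groups compared, a replicate block, array weights, leaving out each library, and edgeR 4.0.16 and DESeq2 1.42.0 on recovered reads. Limma on the same 14 libraries and a fit without the 5 libraries high in *Ttr* were added after the values were seen. The members and lists were chosen with earlier results of these data known. Named genes are the 9 members, *Acsl6*, in each pathway list up to 3 called genes a direction, by smallest p,, 5 genes on each side of the *Fads* cluster and the 5 genes most like a member called for genotype. *Ttr* and *Gfap* fall outside this rule and were picked once values were known. The fit was tested on simulated data. *Scd4*, *Elovl3*, *Fads2b*, *Tecrl* and *Acaa1b* were not analysed here.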

Additional observations from a re-analysis of the deposited data

Results flagged for a closer look

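Of 40 sets of 4 libraries (the 9 members and *Acsl6* in 4 groups), 2 held a library far from the other 3 by Dixon's test, and chance flags about 1 in 20. *Elovl1* had 379.6 normalized counts in young *Acsl6*-/- library 2, against 291 to 304 in the other 3 of that group. *Elovl7* had 546 in aged *Acsl6*-/- library 1, the library of that group that was high in *Ttr*, against 433 to 452 in the other 3.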

How the results depend on the processing

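Of 1251 values of members under alternatives, 1193 stayed on their side of the threshold without turning, 40 lost the call, 11 gained one and 7 turned. The 1193 include 37 uncalled values within 1 SE of 0 that changed sign. The 7 were *Elovl7* for genotype at 18 months (-0.15 with all libraries), at 0.051 with edgeR, 0.056 with DESeq2 and 0.053 with limma on the same 14 libraries, and *Elovl7* for age in control mice (0.11), at -0.084, -0.091 and -0.093 with these and -0.0098 without the libraries high in *Ttr*. The first 3 settings leave out aged control 3 and 4. For genotype at 2 months 1 member was called, 2 with DESeq2 and 1 to 2 when each library was left out. DESeq2 called 212 of 14726 genes there, and the main fit 36 of 17042. For age in *Acsl6*-/- mice 5 members were called, 3 with quantile normalization, 2 with only the 2 groups compared, 3 without the libraries high in *Ttr*, and 1 (without young *Acsl6*-/- library 3) to 5 when each library was left out. Of all 17042 genes the main fit called 3957, and these named settings called 3979, 3524, 3652 and 3181, in that order. The causes were not tested. For age in control mice, for genotype at 18 months and for the interaction, the number of members called stayed within 1.5 times of the main count under all alternatives run. Same-numbered libraries of different groups did not deviate together (r -0.20 to 0.21, over 0.1 in 4 of 24 pairs, against 12 of 72 pairs with different numbers). That gave no sign of pairing, but such a check cannot show that the animals were unpaired. With a replicate block 3 members were called for age in *Acsl6*-/- mice, without *Fads1* (adjusted p = 0.0595) and *Fads6* (0.0543), and *Fads2* at 2 months remained called. With 4 libraries a group, the SE of a member ranged from 0.03 to 0.10 within an age or genotype, which limits what could be detected.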
